A study of Mus musculus with 8 samples.

Results

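The genes described here are 10 transcription factors and response genes of the AP-1 and immediate early class: Fos, Fosb, Fosl1, Fosl2, Jun, Junb, Jund, Atf3, Egr1 and Ier3. They were taken by exact symbol from the deposited table of 27249 genes, and all 10 were found in it. The values are read counts of polyadenylated RNA from primary cultures of mouse vascular smooth muscle, the muscle layer of arteries. Every library came from cells made to overexpress a protein, either green fluorescent protein (GFP, the control) or THOC5, part of the THO complex, which helps mRNA leave the nucleus. Each kind of cell was grown either in plain growth medium or with inorganic phosphate for 6 days (osteogenic medium), a culture model of arterial calcification, which gives 4 groups of 2 libraries. The labels used here do not give the animals' strain or age, the promoter or vector behind the overexpression, or whether replicates were separate cultures, so the p-values below measure the spread between libraries, which may be technical. Time points other than the single one per group were not analysed here, so fast and transient induction of these genes could not be followed.

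AP-1 is a dimer of basic leucine zipper proteins. A JUN protein pairs with another JUN or with a FOS protein, and the dimer binds a short palindrome in promoters and enhancers. FOS, FOSB and EGR1 are textbook immediate early genes: their transcription starts without new protein synthesis when serum or stress signals reach serum response factor and its partners, and their mRNAs decay fast. FOSL1 and FOSL2 lack the strong activation domain of FOS and tend to appear later or to persist, while ATF3 is a stress-induced relative that can also repress. In arterial smooth muscle AP-1 is known for its part in the responses to injury, growth factors and inflammation.

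Promoter sequence is shown first, since several of these genes changed with the medium. RefSeq promoters on GRCm38.p6 were taken by symbol and used for 8 of the 10 genes, and the 250 bases before the annotated start were searched. The promoters of Fosl1 and Egr1 were left out, so the motif counts below describe these 8 genes and not all 10. The window of Jund ends at chr8:70697738, before the start that GENCODE M21 gives the gene, chr8:70698949. The bases just before that GENCODE start were therefore not searched. Below are 4 of the genes that changed and Fos, which carries most matches, without bases that a GENCODE M21 exon covers (the window of Fosl2 lies inside such an exon, so it was searched and is not printed), written 5′ to 3′ on the gene's strand with motif matches in capitals. Fosb is at chr7:19310052-19310295 on the minus strand, Atf3 at chr1:191183341-191183583 on the minus strand, Jun at chr4:95052223-95052472 on the minus strand, Junb at chr8:84978749-84978998 on the minus strand and Fos at chr12:85473640-85473889 on the plus strand.
Fosb: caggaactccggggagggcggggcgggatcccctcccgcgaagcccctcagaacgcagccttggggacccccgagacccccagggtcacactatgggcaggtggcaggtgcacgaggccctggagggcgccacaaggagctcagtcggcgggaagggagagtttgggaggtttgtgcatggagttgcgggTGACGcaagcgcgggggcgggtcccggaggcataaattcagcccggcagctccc
Atf3: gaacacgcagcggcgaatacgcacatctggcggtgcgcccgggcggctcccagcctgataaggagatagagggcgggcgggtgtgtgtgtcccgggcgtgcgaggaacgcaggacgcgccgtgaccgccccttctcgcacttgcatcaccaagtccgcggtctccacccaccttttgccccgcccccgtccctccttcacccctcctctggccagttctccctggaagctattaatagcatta
Jun: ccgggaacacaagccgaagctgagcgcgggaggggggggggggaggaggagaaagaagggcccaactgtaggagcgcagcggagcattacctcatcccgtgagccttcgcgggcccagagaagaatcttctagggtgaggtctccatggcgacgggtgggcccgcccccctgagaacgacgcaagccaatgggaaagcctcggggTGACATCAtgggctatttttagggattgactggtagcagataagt
Junb: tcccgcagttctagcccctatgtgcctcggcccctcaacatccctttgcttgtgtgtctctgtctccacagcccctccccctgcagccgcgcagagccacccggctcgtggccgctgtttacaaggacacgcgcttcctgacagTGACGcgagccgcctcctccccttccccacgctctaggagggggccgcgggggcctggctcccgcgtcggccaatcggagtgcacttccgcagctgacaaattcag
Fos: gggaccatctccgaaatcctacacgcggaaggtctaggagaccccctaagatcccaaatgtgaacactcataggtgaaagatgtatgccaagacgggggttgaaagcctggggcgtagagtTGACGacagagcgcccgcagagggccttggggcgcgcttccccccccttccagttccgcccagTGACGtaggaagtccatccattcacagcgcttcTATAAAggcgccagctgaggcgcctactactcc

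The motifs searched on both strands were TGANTCA (the AP-1 site), TGACNTCA (the cAMP response element form that JUN and ATF dimers bind), TGACG (the shorter core of that element) and the CArG box bound by serum response factor. TATAAA was searched on the gene's strand. A full element with G at the open position would count under the core too, and no match here did. Jun held the match TGACATCA, from 45 to 38 bases before the start, and it was the only 1 of the 8 genes with TGACNTCA, which 7.49% of the 32851 promoters of this length hold. The core TGACG was in 4 of the 8 genes, against 17.8% of all promoters. Fosb and Junb had 1 copy each and Fos had 2. In Atf3 the core lay on the other strand, from 7 to 3 bases before the start, in bases that an exon covers and that are not printed. No exact TGANTCA or CArG box was in the windows of these 8 genes, against 6.75% and 1.47% of all promoters. Bases farther than 250 from the start, and the promoters of Egr1 and Fosl1, were not searched. A lack of such sites in these genes is therefore not shown. TATAAA was found in Fos alone, against 7.59%. Each match is a description of letters and not of a bound site.

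Thoc5 itself checked the labels. GFP libraries held 458 and 471 normalized counts of it (growth) and 650 and 615 (osteogenic), and THOC5 libraries 2155 and 1406 (growth) and 1780 and 1937 (osteogenic), so the lowest THOC5 library was above every GFP library. A normalized count is the number of reads divided by a size factor for the library. The libraries held 7058681 to 10581042 recovered reads, and the limit that a count of 0 allows, 3 reads, was worth 2.59 to 3.99 normalized counts, counting error only. The pair of GFP osteogenic libraries differed from all others in cell markers. Their 7 smooth muscle markers summed to 11908 and 13786 normalized counts against 24480 to 30999 elsewhere, and their 6 fibroblast markers to 6092 and 8764 against 28468 to 37801. In the GFP response 6 of the 7 smooth muscle markers and 4 of the 6 fibroblast markers fell, and the fibroblast markers Pi16 and Dpt were at or near 0 throughout. The sum of 6 macrophage markers was 389 to 498 in all libraries, with Ptprc, Adgre1 and Fcer1g at or near 0. Within that sum Cd68 was higher in the GFP osteogenic pair, 246 and 244 against 111 to 167 elsewhere (limma adjusted p = 0.00729 in the GFP response), and Lyz2 lower, 142 and 147 against 201 to 244 (limma adjusted p = 0.00300). The sum of 4 endothelial markers was 34.0 to 119, with Tie1 at or near 0, and was lowest, at 34.0 and 46.7, in the GFP osteogenic pair. There Vwf was at 12.1 and 9.84 against 58.5 to 106 elsewhere, while Kdr was highest, at 25.1 and 20.6 against 2.87 to 9.32. Every comparison with GFP cells in osteogenic medium below moves with these marker sums, and their part in the results was not tested. Fewer cells of a type and less RNA per cell cannot be told apart in bulk samples.

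Levels were compared between genes only as normalized counts per kilobase of exon, with exon lengths from GENCODE M21. On this scale, over the 8 libraries, Fosl2 had the highest mean, 1624 (1032 to 1887), with Ier3 next at 1536 (1176 to 2065), and their ranges overlapped. Junb followed at 714 (519 to 834) and Egr1 at 484 (438 to 563), again with overlapping ranges. Jun came next at 290 (216 to 383), below every value of Egr1 and above every value of Fos. Fos averaged 45.1 (38.6 to 53.2), Fosl1 40.7 (20.2 to 88.1) and Atf3 35.4 (10.2 to 99.6), and these ranges overlapped. Fosb was lower at 5.97 (2.13 to 16.2), its upper values reaching into the range of Atf3. Jund, at 1.15 (0 to 3.98), was at the edge of detection: its 8 libraries held 1, 5, 1, 0, 1, 4, 0 and 2 reads, so its fitted differences are no measure of change and no direction is read from them.

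**Figure D1:**
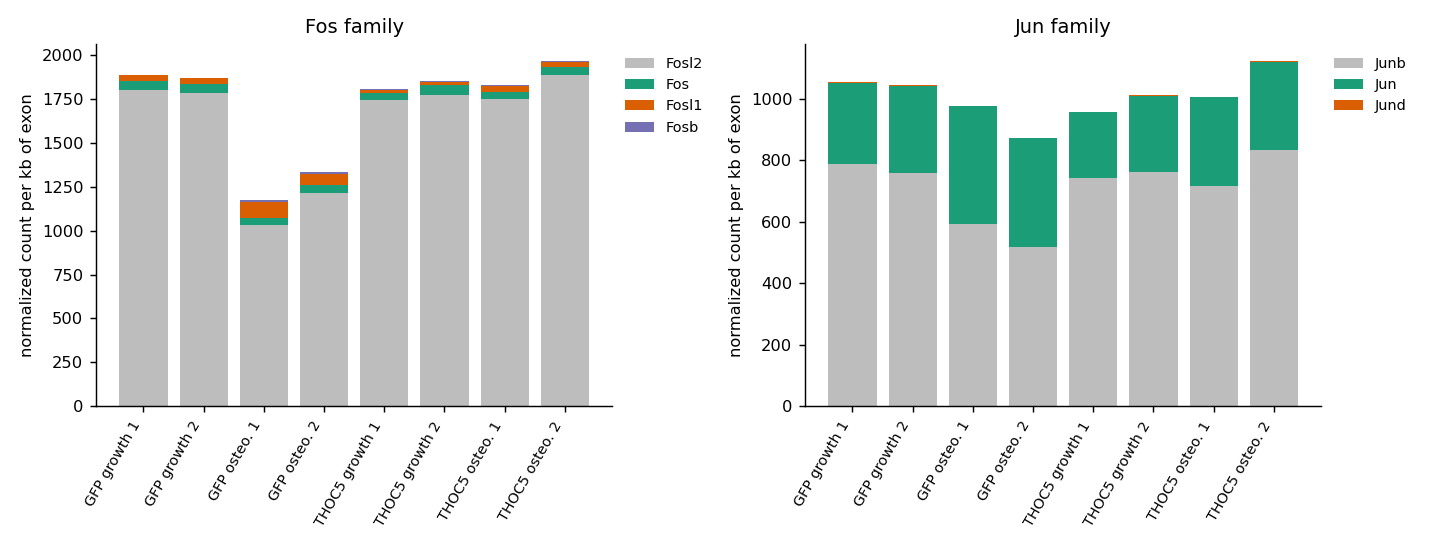
Normalized counts per kilobase of exon (vertical axis) in each of the 8 libraries (horizontal axis), stacked by gene, for the Fos family and the Jun family. Fosl2 fills most of each Fos-family bar, and the bars of the 2 GFP libraries in osteogenic medium, at 1177 and 1337, are the shortest. Jund was too low to be measured, so the Jun-family bars are in effect Jun and Junb.

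Fosl2 made up most of the Fos-family mRNA in every library. Per kilobase it was 95.5 ± 0.107% (SD, n = 2) of the summed Fos, Fosb, Fosl1 and Fosl2 in GFP cells in growth medium and 89.4 ± 2.41% in GFP cells in osteogenic medium. In THOC5 cells the share was 96.2 ± 0.516% in growth medium and 95.8 ± 0.239% in osteogenic medium. The summed family was 1889 and 1871 normalized counts per kilobase in GFP growth libraries and 1177 and 1337 in GFP osteogenic libraries, which did not overlap. It was 1806 and 1852 in THOC5 growth libraries and 1830 and 1966 in THOC5 osteogenic libraries, which did. Within the Jun family, Jun took 26.1 ± 1.51% in GFP growth libraries and 39.9 ± 0.799% in GFP osteogenic libraries, with Junb as nearly all of the rest. Jund, at 0 to 5 reads, was too low to be measured, so these are in effect shares of Jun against Junb alone. The Jun share was 23.5 ± 1.33% and 27.1 ± 2.13% in THOC5 cells in growth and osteogenic medium.

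The first comparison asked what osteogenic medium changes in control cells. In GFP cells, 6 of the 10 genes passed the limma test at an adjusted p below 0.05: Fosb, Atf3, Fosl1 and Jun rose, and Fosl2 and Junb fell. Over all 22575 genes tested, 10.3% rose and 10.6% fell, 20.8% in all. Fos, Egr1, Ier3 and Jund did not pass. For Fos, Egr1 and Ier3 too, the osteogenic pair lay wholly to one side of the growth pair. Separate pairs thus did not mark the genes that passed. The share of all genes with separate pairs, or with the GFP osteogenic pair outermost in the series, was not counted, so no result is read from it. Log2 differences below are of log2(normalized count + 1), 2 libraries against 2, and they understate changes of genes with low counts. Their SE comes from limma's pooled spread within all 4 groups, drawn toward a trend over genes, and not from the libraries compared alone.

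The Fos family went in opposite directions. Fosb, which encodes a FOS protein with full activating ability, had 18.6 and 13.3 normalized counts in GFP growth libraries and 101 and 83.2 in GFP osteogenic libraries. All 4 remaining libraries lay between 16.4 and 23.9, so the GFP osteogenic pair was alone at its level. The rise was 5.53-fold (log2 2.47 ± 0.30, limma adjusted p = 0.000230). Fosl1, encoding FRA-1 (chr19:5447547-5455946), had 66.4 and 67.8 normalized counts in GFP growth libraries and 179 and 127 in GFP osteogenic libraries. It rose 2.23-fold (log2 1.16 ± 0.19, limma adjusted p = 0.00156), and its lower osteogenic library still held more than every other library of the series. Fosl2, encoding FRA-2 (chr5:32135801-32157842), had 17442 and 17298 normalized counts in growth libraries and 9991 and 11784 in osteogenic ones. This fall of 1.60-fold (log2 -0.68 ± 0.10, limma adjusted p = 0.000871) left both osteogenic libraries below all of the other 6, which held 16877 to 18262. Fos, the founding member, had 121 and 113 normalized counts in growth libraries and 96.0 and 102 in osteogenic ones, and its difference did not pass (log2 -0.24 ± 0.17, limma adjusted p = 0.382).

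Jun and Junb also parted. Jun, which encodes the strongest activator of its family, had 840 and 905 normalized counts in GFP growth libraries and 1222 and 1123 in GFP osteogenic libraries, a rise of 1.34-fold (log2 0.43 ± 0.09, limma adjusted p = 0.00741). Junb, whose protein can limit JUN in dimers, had 1814 and 1743 in growth libraries and 1360 and 1194 in osteogenic ones, a fall of 1.39-fold (log2 -0.48 ± 0.10, limma adjusted p = 0.00459). The 2 GFP osteogenic libraries were the highest of all 8 for Jun and the lowest of all 8 for Junb. They were also the highest of all 8 for Ier3, which did not pass.

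Atf3, the stress-induced member, had 64.1 and 22.6 normalized counts in GFP growth libraries and 214 and 171 in GFP osteogenic libraries. It rose 4.91-fold (log2 2.30 ± 0.49, limma adjusted p = 0.00678). With only the 4 libraries compared in the fit, it just missed the threshold (limma adjusted p = 0.0545). Replicates of the growth groups disagreed for this gene: replicate 1 exceeded replicate 2 by log2 1.46 in GFP cells and by 1.49 in THOC5 cells, where it had 63.7 and 22.0. Among the other 7 genes compared this way, with Fosb and Jund left out as low, the widest gap within a group was 0.49, for Fosl1 in GFP osteogenic libraries. Egr1, a zinc finger factor of the immediate early class outside AP-1, had 2527 and 2216 normalized counts in growth libraries and 1966 and 2063 in osteogenic ones. Its difference did not pass (log2 -0.23 ± 0.09, limma adjusted p = 0.110). Ier3, a stress-response gene that acts on survival and ERK signalling, had 1412 and 1776 against 2336 and 1848. Its difference of log2 0.39 ± 0.14 missed the threshold in limma (adjusted p = 0.0786) and passed in edgeR (adjusted p = 0.0297) and DESeq2 (adjusted p = 0.0288).

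Calls of the GFP response depended on single libraries for 3 genes. Without GFP growth replicate 2 the Atf3 difference was log2 1.56 (limma adjusted p = 0.150), and without GFP osteogenic replicate 1 or 2 its adjusted p was 0.121 or 0.0606. Jun was at an adjusted p of 0.0838 without GFP growth replicate 1 and 0.0820 without GFP osteogenic replicate 1, and Junb at 0.0726 and 0.0583 without GFP growth replicate 1 and 2. Fosb, Fosl1 and Fosl2 passed with each of the 8 libraries left out in turn. The authors' deposited table called 5 of the 10 genes higher and 2 lower at an adjusted p below 0.05, where 13.0% and 14.1% of its genes with an adjusted p were, and the additional gene was Ier3 (log2 0.39, adjusted p = 0.0291).

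**Figure D2:**
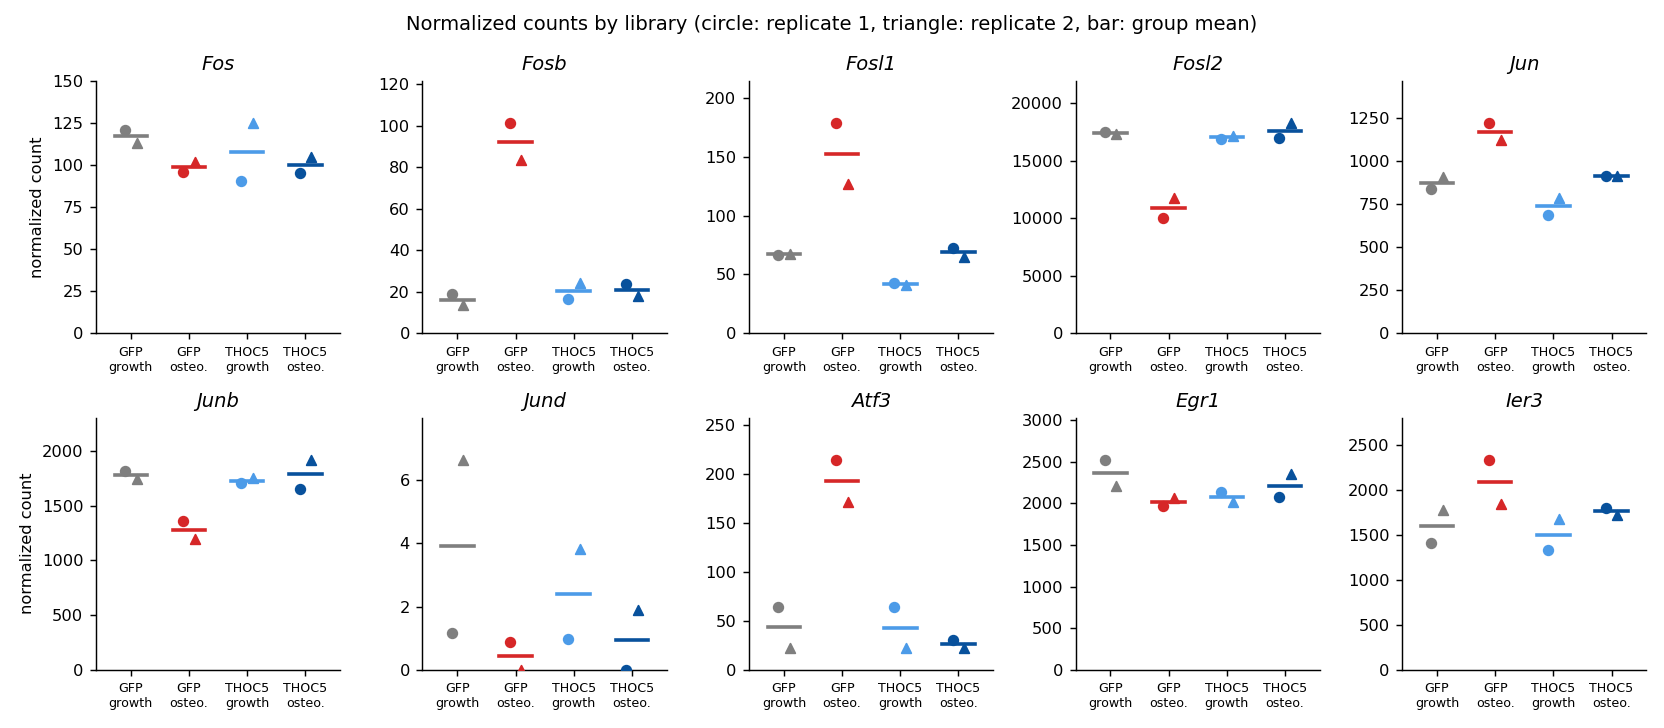
Normalized counts (vertical axis, from 0, a separate scale per panel) of the 10 genes in the 4 groups (horizontal axis); circles are replicate 1, triangles replicate 2 and bars the mean of the 2. For Fosb, Fosl1, Atf3, Jun and Ier3 the GFP osteogenic libraries lie above the other 6, and for Fosl2 and Junb below them. For Fos they lie below the GFP growth libraries and between the THOC5 growth libraries. The share of all genes with such separation was not counted.

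The same medium was then compared in THOC5 cells. None of the 10 genes passed, where 0.540% of all genes did (0.532% higher, 0.00886% lower). Unadjusted p was below 0.05 for 2 of them in limma and in edgeR and DESeq2, and neither of these tools called a gene of the 10. The 2 in limma were Fosl1 and Jun, named after their values were seen. Fosl1 had 42.5 and 41.1 normalized counts in THOC5 growth libraries and 72.7 and 64.8 in THOC5 osteogenic libraries (log2 0.70 ± 0.19, limma adjusted p = 0.391). Jun had 689 and 788 against 915 and 914 (log2 0.31 ± 0.09, limma adjusted p = 0.526). For both genes the osteogenic pair lay above the growth pair, as it did for Ier3 with 1330 and 1673 against 1802 and 1723 (log2 0.24 ± 0.14, limma adjusted p = 0.903). The share of all genes whose pairs are separate in this way was not counted, so no result about these genes is read from it. The authors' deposited table called none of the 10 in this comparison, where it called 0.977% of its genes higher and 0.126% lower.

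The remaining members overlapped between the media in THOC5 cells. Fosb had 16.4 and 23.9 normalized counts in growth libraries and 23.6 and 17.8 in osteogenic ones (log2 0.05 ± 0.30, limma adjusted p = 1.00). Atf3 had 30.0 and 22.5 in osteogenic medium, within the 63.7 and 22.0 of growth medium (log2 -0.51 ± 0.49, limma adjusted p = 0.931). Without THOC5 growth replicate 1 that Atf3 value was 0.23, and without replicate 2 it was -1.26, so its direction was set by 1 library. Fosl2 had 16877 and 17177 against 16940 and 18262, and Junb 1705 and 1751 against 1650 and 1919. Their differences of log2 0.05 ± 0.10 and 0.04 ± 0.10 were no larger than their SE. Fos (90.8 and 125 against 95.4 and 105) and Egr1 (2136 and 2023 against 2073 and 2359) showed the same overlap.

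THOC5 and GFP cells were compared next in growth medium. None of the 10 genes passed, where 0.00443% of all genes did, which is the single gene Thoc5. Again 2 of the 10 had an unadjusted p below 0.05 in limma and in edgeR, and 1 in DESeq2, and neither tool called any. In limma these were Fosl1 and Jun, named after their values were seen. Fosl1 was at 66.4 and 67.8 normalized counts in GFP libraries and 42.5 and 41.1 in THOC5 libraries (log2 -0.67 ± 0.19, limma adjusted p = 0.906). These values rest on 57 and 51 reads in GFP libraries and 44 and 43 in THOC5 libraries, so the closeness within pairs is no measure of precision. Jun was at 840 and 905 against 689 and 788 (log2 -0.24 ± 0.09, limma adjusted p = 0.906). Like limma, the authors' deposited table called none of the 10 in growth medium and 0.00367% of its genes, all higher.

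In osteogenic medium THOC5 cells differed from GFP cells in 6 of the 10 genes. Fosl2 and Junb were higher and Fosb, Fosl1, Jun and Atf3 lower with THOC5, where 11.3% of all genes were higher and 10.7% lower (22.0% in all). The comparison shares its 2 GFP osteogenic libraries with the GFP response, so the values of both stand side by side and their likeness is no result. The authors' deposited table called 2 of the 10 higher and 4 lower as well, where 15.6% and 14.2% of its genes were.

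Fosb had 23.6 and 17.8 normalized counts in THOC5 libraries against 101 and 83.2 in GFP libraries, 4.31-fold lower (log2 -2.11 ± 0.30, limma adjusted p = 0.000565). Fosl1 had 72.7 and 64.8 against 179 and 127, 2.18-fold lower (log2 -1.12 ± 0.19, limma adjusted p = 0.00171). Fosl2, by contrast, had 16940 and 18262 against 9991 and 11784, 1.62-fold higher (log2 0.70 ± 0.10, limma adjusted p = 0.000650). Within the Fos family the abundant member was thus higher with THOC5 and a pair of scarce ones lower.

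Jun had 915 and 914 normalized counts in THOC5 libraries against 1222 and 1123 in GFP libraries, 1.28-fold lower (log2 -0.36 ± 0.09, limma adjusted p = 0.0175). Junb had 1650 and 1919 against 1360 and 1194, 1.40-fold higher (log2 0.48 ± 0.10, limma adjusted p = 0.00428). Atf3 showed the largest difference of the 10, with 30.0 and 22.5 against 214 and 171, 7.13-fold lower (log2 -2.83 ± 0.49, limma adjusted p = 0.00188). In each of these genes the groups were separate, a trait whose share over all genes was not counted.

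Fos, Egr1, Ier3 and Jund did not pass in osteogenic medium. Fos differed by log2 0.02 ± 0.17 (limma adjusted p = 0.976) and Egr1 by 0.13 ± 0.09 (limma adjusted p = 0.374), and both signs turned, to -0.16 and -0.04, when libraries were scaled to their totals. Ier3 differed by -0.24 ± 0.14 (limma adjusted p = 0.291). Jun lost its call without GFP osteogenic replicate 1 (limma adjusted p = 0.134) and without THOC5 osteogenic replicate 1 (0.101) or 2 (0.120), Atf3 without GFP osteogenic replicate 1 (0.0592) or THOC5 osteogenic replicate 2 (0.0504), and Junb without THOC5 osteogenic replicate 2 (0.0801). With only the 4 libraries compared in the fit, Fosl1 (limma adjusted p = 0.0507) and Junb (0.0766) missed the threshold.

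**Figure D3:**
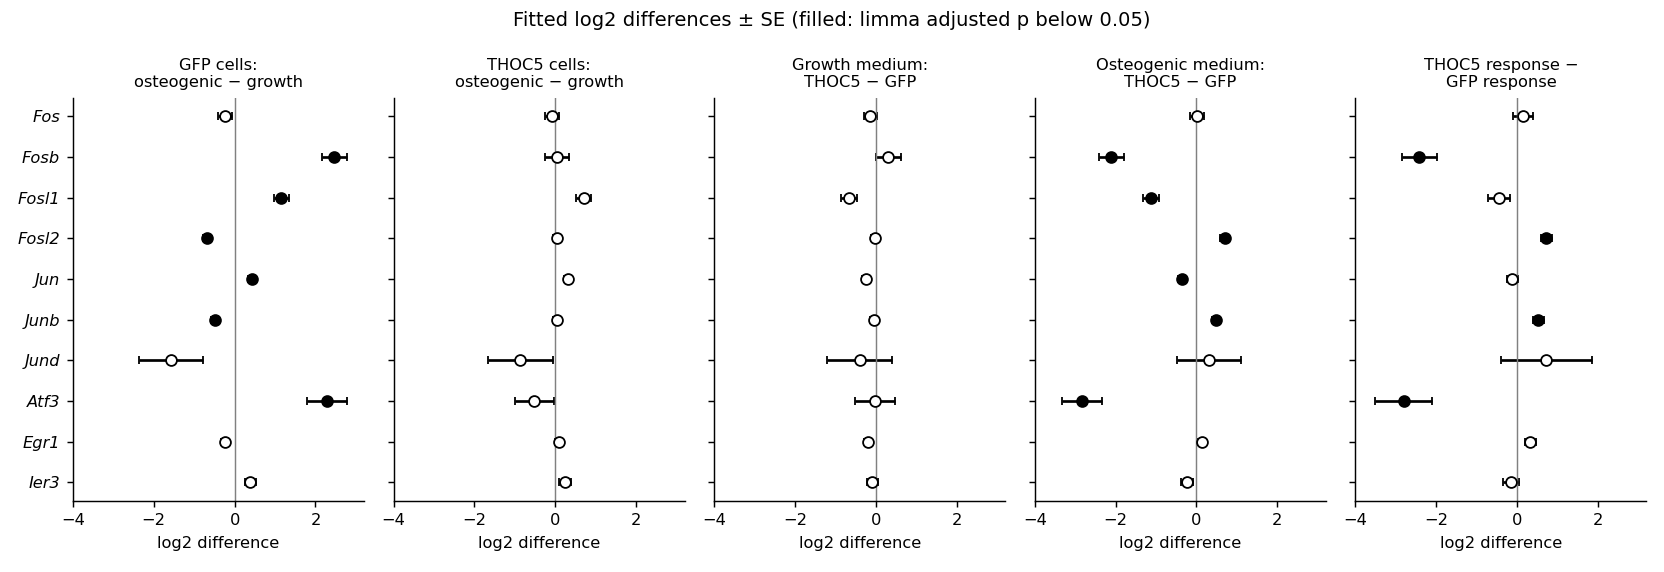
Log2 differences of log2(normalized count + 1) (horizontal axis, points with SE bars) for the 10 genes (vertical axis) in each comparison; filled points passed at a limma adjusted p below 0.05. Filled points appear in the GFP response (6), in THOC5 against GFP in osteogenic medium (6) and in the interaction (4), and in no other comparison.

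Whether the medium response itself differed between THOC5 and GFP cells was tested as an interaction. It passed for 4 of the 10 genes, Fosb and Atf3 with a lower response in THOC5 cells and Fosl2 and Junb with a higher one, where 5.30% of all genes were higher and 3.92% lower (9.22% in all). The difference of responses was log2 -2.42 ± 0.43 for Fosb (limma adjusted p = 0.00652) and -2.81 ± 0.70 for Atf3 (limma adjusted p = 0.0298). It was 0.73 ± 0.15 for Fosl2 (limma adjusted p = 0.0113) and 0.52 ± 0.14 for Junb (limma adjusted p = 0.0364). For Fosl1, Jun and Ier3 the difference of responses did not pass (log2 -0.45 ± 0.27, limma adjusted p = 0.360, -0.11 ± 0.13, limma adjusted p = 0.664, and -0.15 ± 0.20, limma adjusted p = 0.716). For these genes a difference in response was not detectable. Neither did Egr1 pass (log2 0.32 ± 0.13, limma adjusted p = 0.171).

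The interaction calls depended on single libraries. Junb lost its call with any library left out (limma adjusted p 0.0556 to 0.190), Atf3 with any but THOC5 growth replicate 2 (up to 0.197), Fosl2 in 5 of 8 cases (up to 0.105) and Fosb in 4 of 8 (up to 0.0716). No sign changed among these 4. Without GFP growth replicate 1, no gene of the whole table passed the interaction in limma (0 of 22575, with 5060 at an unadjusted p below 0.05), and this fit was not repeated in edgeR or DESeq2. With every gene above 0 in the test, Atf3 (limma adjusted p = 0.119) and Junb (0.0842) also missed the threshold.

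Other genes of the pathway were described from 5 lists, without a set test. Over all genes, 10.3% rose and 10.6% fell in the GFP response. With THOC5 in osteogenic medium 11.3% were higher and 10.7% lower. A count near these shares is no result about a list. The lists were chosen with earlier results of these data known, so counts above the shares may come in part from the choice. Among the 12 measured of 14 bZIP partners, the dimerization partners and small MAF proteins, 2 rose and 3 fell in the GFP response, with a median log2 of 0.15 against 0.00 over all genes. Mafg (log2 0.61 ± 0.10) and Mafk (0.68 ± 0.17), small MAF proteins without an activation domain, rose. Maf, the large MAF factor, fell 2.05-fold from 1937 and 2014 normalized counts to 838 and 1106 (log2 -1.04 ± 0.12, limma adjusted p = 0.000127). Atf7 fell by 0.38 ± 0.08. With only the 4 libraries compared, Mafk (limma adjusted p = 0.0547) and Atf7 (0.0518) missed the threshold, and so did Atf7 when scaled to totals (0.0757) and Mafk with 3 of the 8 libraries left out in turn (up to 0.200). In osteogenic medium 3 partners were higher and 7 lower with THOC5, with a median of -0.37. Maf and Atf7 were among the higher ones, Atf7 not when scaled to totals (limma adjusted p = 0.116). Creb5, a CREB-family member, at 6.36 and 13.1 normalized counts against 94.3 and 51.0, was lower by log2 -2.79 ± 0.56 (limma adjusted p = 0.00433).

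Of 29 measured other immediate early genes, 8 rose and 7 fell in the GFP response (median log2 0.13), against 10.3% and 10.6% of all genes. Plk2, a stress-induced kinase, rose 2.54-fold, from 930 and 837 normalized counts to 2515 and 2002 (log2 1.35 ± 0.12, limma adjusted p = 3.39e-05). Trib1, a pseudokinase that steers proteins to degradation, fell 2.48-fold, from 1175 and 1119 to 458 and 468 (log2 -1.31 ± 0.08, limma adjusted p = 4.20e-06). Ccn1, the secreted matricellular protein also called CYR61, fell 2.39-fold and Ier5l 2.75-fold. With THOC5 in osteogenic medium, where 11.3% of all genes were higher and 10.7% lower, 7 of the 29 were higher and 9 lower (median -0.27). Scaled to totals this became 6 higher and 14 lower, and in edgeR 7 and 13. Trib1 stood at 1099 and 1211 and Plk2 at 835 and 783. These 4 genes passed the interaction as well, with log2 1.25 for Trib1, -1.36 for Plk2, 1.04 for Ccn1 and 1.44 for Ier5l.

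Upstream of AP-1, 2 of 19 kinases and genes of the serum response factor pathway rose and 3 fell in the GFP response (median log2 -0.04). Over all genes 10.3% rose and 10.6% fell. Srf, the factor that binds CArG boxes, fell 1.55-fold from 989 and 766 normalized counts to 565 and 556 (log2 -0.63 ± 0.11, limma adjusted p = 0.00242). Its coactivator Mrtfa fell by 0.63 ± 0.08, and Nab2, a corepressor of EGR1, by 0.52 ± 0.10. The JNK genes Mapk9 (log2 0.38 ± 0.08) and Mapk8 (0.40 ± 0.11), the latter named after its values were seen, rose. With THOC5 in osteogenic medium, where 11.3% of all genes were higher and 10.7% lower, 4 of the 19 were higher and 2 lower (median 0.13). Higher were Mrtfa, Nab2, Srf and Map2k7, and lower were Mapk8 and Mapk9. Map2k7 and Mapk8 were named after their values were seen. Scaled to totals, the counts of this list became 2 higher and 3 lower, with a median of -0.05. Of the 8 turnover genes, the ubiquitin ligase Nedd4 fell 1.90-fold in the GFP response (log2 -0.92 ± 0.10, limma adjusted p = 0.000123). With THOC5 in osteogenic medium, Nedd4 was higher (log2 0.84 ± 0.10) and Fbxw7, which marks JUN for destruction, lower (-0.46 ± 0.13). Fbxw7 did not pass in DESeq2 (adjusted p = 0.0587), with only the 4 libraries compared (limma adjusted p = 0.113) or with 4 of the 8 libraries left out in turn (up to 0.226).

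Of 24 textbook AP-1 targets, 12 rose and 3 fell in the GFP response (median log2 0.49), against 10.3% and 10.6% of all genes. These targets were listed with earlier results of these data known, so the counts and the median may be set in part by the choice. Hmox1, heme oxygenase 1, rose 4.36-fold, from 6667 and 7568 normalized counts to 34528 and 27827 (log2 2.13 ± 0.11, limma adjusted p = 2.04e-06). Gclc, the catalytic subunit of glutathione synthesis, rose 3.09-fold, Ptgs2, cyclooxygenase 2, 3.10-fold and Ccl2, a monocyte chemokine, 2.25-fold. Mmp3 (log2 -1.09 ± 0.15) and Timp1 (-0.45 ± 0.08), both named after their values were seen, were among those that fell. Hmox1 and Gclc are also known targets of the oxidative stress factor NRF2, and these genes have many regulators besides AP-1. With THOC5 in osteogenic medium 3 targets were higher, Mmp3 and Timp1 among them, and 13 were lower (median -0.73). Over all genes 11.3% were higher and 10.7% lower. Hmox1 was at 7484 and 7167 (log2 -2.08 ± 0.11), Gclc at 955 and 849 (-1.55 ± 0.10), Ptgs2 at 2116 and 1803 (-1.77 ± 0.12) and Hmga2, a chromatin protein, at 503 and 459 against 1570 and 1140 (-1.48 ± 0.15).

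No gene of the 5 lists passed in limma, edgeR or DESeq2 in the THOC5 response or in THOC5 against GFP in growth medium, with a limma unadjusted p below 0.05 for 8 of 24 targets in each, for 6 of 29 other immediate early genes in the first and 5 in the second, and for none of the rest. Of all 22575 genes, 1282 and 1152 had such an unadjusted p in these comparisons. Over all genes the interaction was higher for 5.30% and lower for 3.92%. It was higher for 3 targets, Mmp3 and Timp1 among them, and lower for 8 (12 in edgeR, 11 in DESeq2 and 10 scaled to totals). It was higher for 5 other immediate early genes (Ier5l, Trib1, Ccn1, Klf2 and Errfi1) and lower for Plk2 and Dusp1, of which Klf2 and Dusp1 were named after their values were seen. Maf, Mrtfa, Nab2 and Nedd4 were higher and Mafg lower in the other lists. Scaling libraries to their totals moved the median of all genes by log2 0.14 in the GFP response and by -0.17 in THOC5 against GFP in osteogenic medium. It turned the counts of bZIP partners in the GFP response to 3 higher and 1 lower, of other immediate early genes to 11 and 5, and of turnover genes to 4 and 1.

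**Figure D4:**
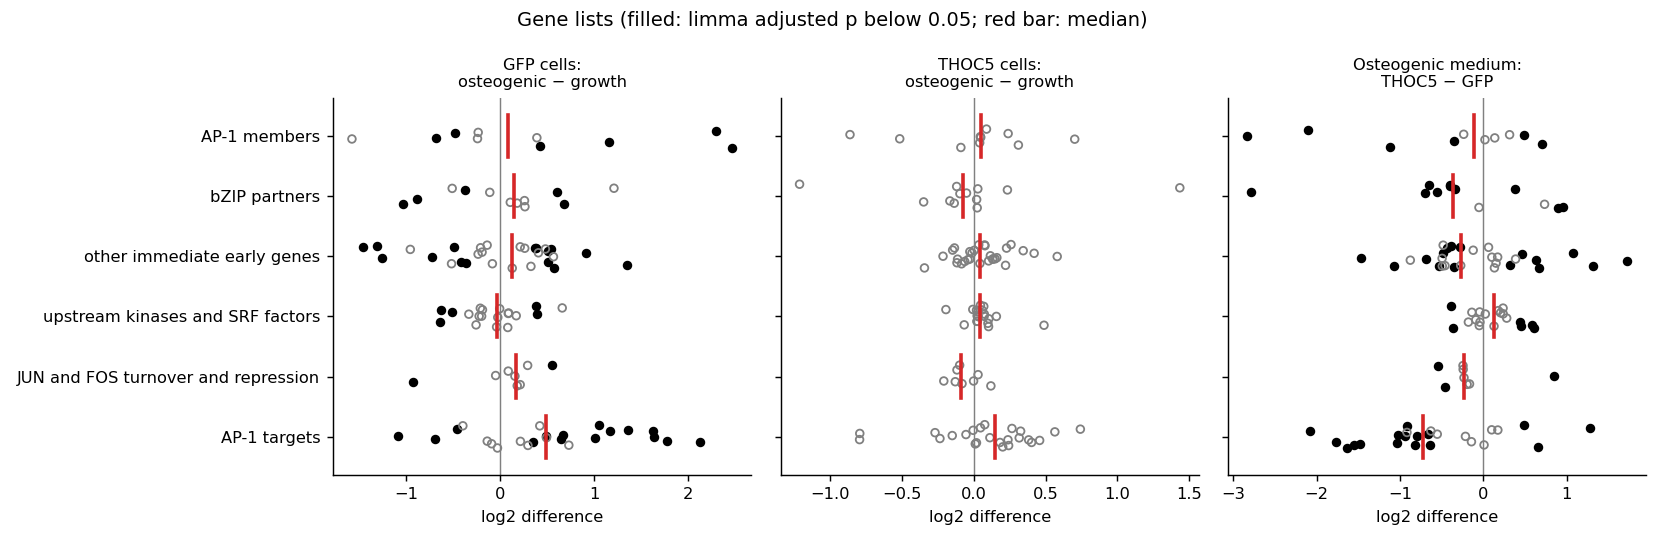
Log2 differences of log2(normalized count + 1) (horizontal axis) for every measured gene of the lists (rows); filled points passed at a limma adjusted p below 0.05 and red bars mark list medians. The AP-1 targets have the median farthest from 0, at 0.49 in the GFP response and -0.73 in THOC5 against GFP in osteogenic medium. The lists were chosen with earlier results of these data known.

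For 4 members the genes with the most similar pattern were looked up among 10369 genes with a mean of at least 50 normalized counts, by Pearson's r over the 8 libraries. The libraries share size factors and fall apart by group, and the r is a description. Nearest to Atf3 were Cyb5r1 (r = 0.998), Cars (0.997) and Aldh18a1 (0.995). Cyb5r1 had 709 and 428 normalized counts in GFP growth libraries, 1389 and 1169 in GFP osteogenic, 749 and 419 in THOC5 growth and 463 and 429 in THOC5 osteogenic libraries, so it carried the same split between growth replicates. Nearest to Fosl1 were Mapkapk3 (r = 0.997), Abl2 (0.989) and Mrpl45 (0.989). Mapkapk3 had 153 and 154 in GFP growth, 271 and 209 in GFP osteogenic, 122 and 117 in THOC5 growth and 160 and 145 in THOC5 osteogenic libraries. Like Fosl1, it was lowest in THOC5 growth libraries and highest in GFP osteogenic ones. Fos had no such close neighbours, with Fanci at 0.935, Fam160a2 at 0.911 and Rhou at 0.907, and nor did Egr1, with Ccdc191 at 0.947, Rmnd1 at 0.926 and Sgce at 0.919.

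**Figure D5:**
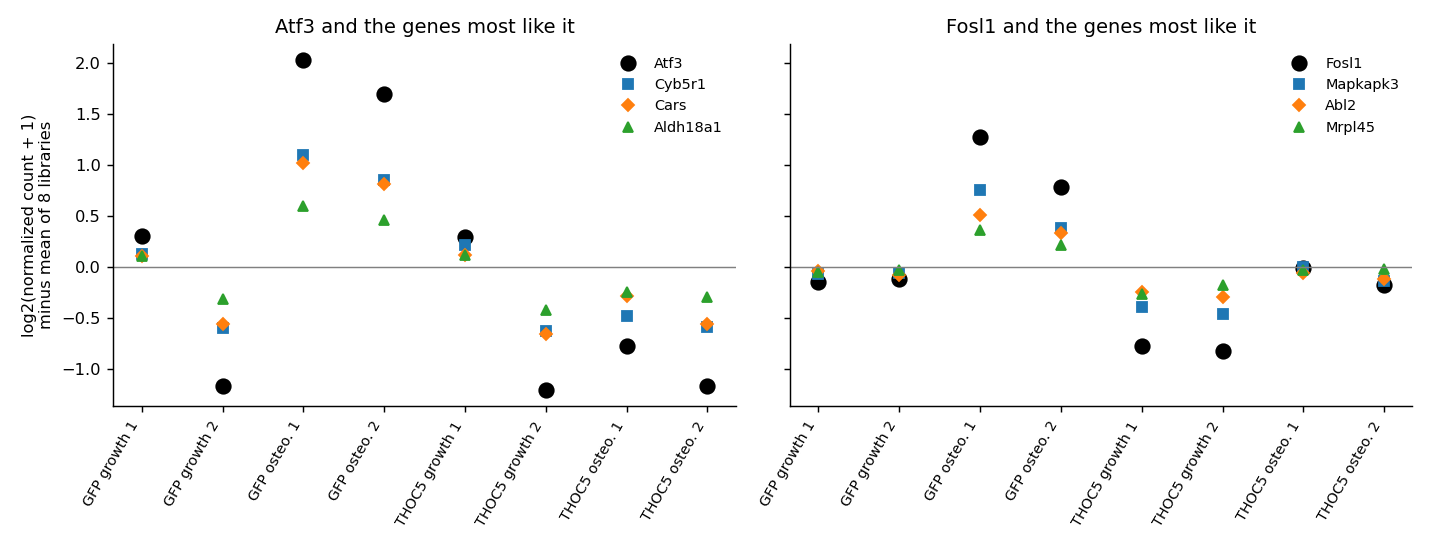
Log2(normalized count + 1) minus its mean over the 8 libraries (vertical axis) in each library (horizontal axis), for members (black) and the 3 genes most like each (coloured). The genes nearest to Atf3 show its gap between growth replicates 1 and 2, and those nearest to Fosl1 its low values in THOC5 growth libraries.

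Some of the genes share bases with a neighbour on the opposite strand, and the library kit did not mark strand, so reads there cannot be told apart. By GENCODE M21, Fosl1 overlaps Ccdc85b over 2767 bases, Jun overlaps Junos over 689 and Junb overlaps Prdx2 over 351. Jund overlaps Gm11175 over 919 bases and Atf3 overlaps Gm24748 over 108, and neither neighbour is in the deposited table by that name. Whether its overlap has a part in the low count of Jund was not tested. In the GFP response Ccdc85b differed by log2 -0.33 ± 0.12 (limma adjusted p = 0.0757), against the rise of Fosl1, Junos by -0.32 ± 0.23 (limma adjusted p = 0.386) and Prdx2 by -0.15 ± 0.10 (limma adjusted p = 0.319).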

How the data were processed

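Polyadenylated RNA was sequenced in 8 libraries, which the sample titles place in 4 groups of 2. The deposited table holds a signal per gene and library, the read count divided by a size factor, as tested on the values: multiplying back gave whole reads for 100% of values within 1e-06. The table also carries the authors' log2 fold changes, p-values and a test score for 4 comparisons, per the file headers, and the score was not used. FastQC, Bowtie2, MACS2, SAMtools and mm10 are named without roles, per the submitters' processing notes, while for counting and annotation the tool is not given in the sources used here. RNA immunoprecipitation libraries were not analysed here.

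Under R 4.3.3, limma 3.58.1 with an intensity trend modelled log2(normalized count + 1) of the 22575 genes that reached 1 normalized count in 2 or more libraries. One model held all 8 libraries, with 4 residual degrees of freedom, and Benjamini-Hochberg adjustment within each of 5 contrasts at 0.05. edgeR 4.0.16 and DESeq2 1.42.0 on the recovered reads, other pseudocounts, filters, scalings and sample sets were alternatives. Recovered reads ranged from 7058681 to 10581042, and genes with few reads, such as Jund, are poorly measured. All 10 genes were named, and of each list up to 4 genes per contrast with the smallest p among those past the threshold. A few list genes that enter the counts are not reported here by name. Members and lists were chosen with earlier results of these data known. For 5 list genes the table held another symbol of the gene, and Batf, Tyrobp, Cdh5 and Emcn were not analysed here.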

Additional observations from a re-analysis of the deposited data

Results flagged for a closer look

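Of 33 named genes whose medium response was compared between THOC5 and GFP cells by the interaction term, 20 passed at a limma adjusted p below 0.05, against 9.22% of all genes. The named list genes were chosen by their p-values, so this share is fixed in part by the choice. The difference of responses (THOC5 minus GFP, log2) among the AP-1 members was -2.42 for Fosb, -2.81 for Atf3, 0.73 for Fosl2 and 0.52 for Junb. Among bZIP partners it was 0.94 for Maf and -0.59 for Mafg. Among other immediate early genes it was 1.25 for Trib1, -1.36 for Plk2, 1.44 for Ier5l, 1.04 for Ccn1 and 0.65 for Errfi1. Mrtfa at 0.56, Nab2 at 0.54 and the ubiquitin ligase Nedd4 at 0.72 passed among regulators. AP-1 targets gave -1.74 for Hmox1, -1.30 for Gclc, -1.32 for Ptgs2, -0.77 for Ccl2 and -1.11 for Hmga2.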

How the results depend on the processing

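Among the alternatives that left no library out, 369 values of the 10 genes kept their direction and their side of the threshold, 4 newly passed (all Ier3 in the GFP response), 6 no longer passed and 2 reversed, Fos (-0.16) and Egr1 (-0.042) in THOC5 against GFP in osteogenic medium when scaled to totals. With only the 4 libraries compared, the GFP response had 2293 genes past the threshold against 4698, the THOC5 response 0 against 122 (1788 at an unadjusted p below 0.05), growth medium 0 against 1 (1252 unadjusted) and osteogenic medium 3030 against 4963. edgeR and DESeq2, on all libraries, gave 159 and 150 for the THOC5 response and 1 each in growth medium. With any value above 0 admitted, 37 genes passed in the THOC5 response, 0 in growth medium (1660 unadjusted) and 1122 against 2082 in the interaction, where 2 of the 10 genes then passed. Scaled to totals, calls split into 3720 higher and 1686 lower against 2314 and 2384 in the GFP response, 1662 and 4063 against 2550 and 2413 in osteogenic medium, and 887 and 1381 against 1197 and 885 in the interaction. With 1 library left out, genes past the threshold ranged from 2067 to 4496 for the GFP response (4 to 6 of the 10 genes), 8 to 106 for the THOC5 response (0), 0 to 1 in growth medium (0), 1987 to 4753 in osteogenic medium (3 to 6) and 0 to 1751 in the interaction (0 to 3). No called value of the 10 genes changed sign. Uncalled values that did ranged, in log2, in the THOC5 response from -0.32 to 0.14 for Fos, -0.21 to 0.31 for Fosb, -0.0073 to 0.10 for Fosl2, -0.066 to 0.15 for Junb, -1.26 to 0.23 for Atf3 and -0.0039 to 0.18 for Egr1. In growth medium they ranged from -0.36 to 0.10 for Fos, -1.31 to 0.51 for Jund, -0.77 to 0.72 for Atf3 and -0.25 to 0.079 for Ier3. Osteogenic medium gave -0.052 to 0.087 for Fos and -0.45 to 1.08 for Jund, and the interaction -0.078 to 0.38 for Fos, -0.19 to 1.63 for Jund and -0.32 to 0.018 for Ier3. The Jund values come from 0 to 5 reads and give no direction. Of values of list genes past the threshold, 17 lost it in settings that left no library out and 69 with 1 library left out. The cause was not tested.

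Over 10655 genes, deviations of same-numbered libraries correlated at 0.40 between the growth groups of GFP and THOC5 cells, at 0.14 between the 2 GFP groups and from -0.19 to -0.0076 in the other 4 pairs of groups. Since not every correlation was over 0.1, the numbers were not taken to pair the samples. With a replicate block, the GFP response had 4723 genes past the threshold, the THOC5 response 123, with 1 in growth medium, 4948 in osteogenic medium and 2238 in the interaction, and no call of the 10 genes changed. The block fits 1 offset between replicate numbers across all 4 groups, so a tie within growth medium alone was not modelled. Jund, with at most 5 reads, was too low to be measured, and Fosb in growth medium had 10 to 25 reads a library. Why Jund was so low was not tested.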
